A study of Mus musculus with 12 samples.

Results

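BCL6 and 6 of the corepressor genes it is known to work with were followed through early development of invariant natural killer T (iNKT) cells in the mouse thymus. The 7 genes were chosen by symbol as Bcl6, Bcor, Ncor1, Hdac3, Tbl1xr1, Ctbp1 and Mta3. All 7 matched an Ensembl gene ID among the 48672 IDs in each count table, and all 7 were among the 15704 genes with enough counts to be tested.

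iNKT cells carry a nearly fixed T cell receptor that reads lipid antigens, and they were sorted here as cells binding the tetramer and positive for TCRb. Stage 0 cells were CD24+CD44- and stage 1 cells were CD24-CD44-. All groups were C57Bl/6J mice aged 4 to 5 weeks with no treatment, and thymi of 4 to 7 mice were pooled. The WT and Bcl6KO genotypes, the second given as CDCre;Bcl6F/F, were each sorted at both stages with 3 libraries per group. Neither the promoter that drives the Cre, nor the exons that it removes, nor whether WT mice carried a Cre is stated in the labels. Whether replicate libraries were made from different pools of thymi is not stated either, so p-values reflect only the spread between libraries, which may be technical.

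BCL6 is a transcriptional repressor with a BTB domain and zinc fingers. Its BTB domain recruits NCOR1 or BCOR, and other regions recruit MTA3 within the NuRD complex and CtBP. NCOR1 acts as a scaffold with TBL1XR1 and the deacetylase HDAC3. BCOR belongs to a variant Polycomb complex. BCL6 is best known from germinal centre B cells and follicular helper T cells, and it is also made in CD4+CD8+ double-positive thymocytes, from which iNKT cells arise.

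Sequences around transcription starts are shown first because BCL6 binds a DNA motif whose core is TTCCTAGAA, and STAT factors, which compete for related sites in B cells, bind the looser palindrome TTCNNNGAA. Every TTCCTAGAA is also a TTCNNNGAA. Both strands were searched; TTCNNNGAA has the same pattern on either strand, whereas TTCCTAGAA does not. RefSeq windows on GRCm38.p6, running from 250 bases before to 50 bases after a start, were found for 5 of the 7 genes, with 8 windows in all. Hdac3 and Mta3 had no window. The BCL6 core was present in 1 of the 8 windows, at a start inside Ncor1, and in 0.411% of all 32851 windows of the same length. The looser palindrome was present in 5 of the 8, both for Bcl6, both overlapping windows of Bcor and the one inside Ncor1, and in 8.3% of all windows. The lines below give the Ncor1 site with its flanks and the 250 bases before each Bcl6 start, all on the minus strand, with the palindromes in capitals.
Ncor1 internal start, chr11:62438492-62438520: tgtaggttgcTTCCTAGAAacatggttgt
Bcl6 outer start, chr16:23988853-23989102: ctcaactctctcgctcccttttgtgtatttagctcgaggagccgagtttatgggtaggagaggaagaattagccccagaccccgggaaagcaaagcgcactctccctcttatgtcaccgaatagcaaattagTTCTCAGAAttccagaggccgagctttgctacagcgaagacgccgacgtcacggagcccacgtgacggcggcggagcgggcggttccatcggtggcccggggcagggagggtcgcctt
Bcl6 inner start, chr16:23981284-23981533: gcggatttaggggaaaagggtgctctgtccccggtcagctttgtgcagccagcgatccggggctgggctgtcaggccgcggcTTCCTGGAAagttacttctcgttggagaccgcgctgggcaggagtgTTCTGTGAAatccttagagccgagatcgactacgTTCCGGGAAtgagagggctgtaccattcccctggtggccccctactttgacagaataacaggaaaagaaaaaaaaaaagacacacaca
The outer Bcl6 window ends at the annotated edge of the gene, and the inner one lies inside the gene with 0 bases in its annotated exons. The inner window held 3 palindromes and the outer one held 1. A match of letters describes the window and does not show that a factor binds there, and the gene counts do not separate transcripts from the 2 starts.

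Library totals ran from 4129919 to 8038717 counts, so that 3 counts, the limit that a count of 0 allows, correspond to 0.569 to 0.615 CPM (counts per 1000000 counts of the scaled library). The Bcl6KO stage 0 libraries stood apart from the rest: they had the fewest genes detected, 16287 ± 1437 (SD, n = 3), where the other group means ran from 19770 to 21391. In these 3 libraries the single gene Sp100 took 10.8%, 23.9% and 17.9% of counts, against at most 5.03% in any other library. The Sp100 share thus largely coincided with this group, and the fits below that use it as a covariate cannot tell them apart. The iNKT marker list (11 genes) summed to 2557 to 4678 CPM across libraries, and none of its genes was at 0 in any group. This sum hides that some of its genes fell with stage. At an adjusted p under 0.05 edgeR called 3 of the 11 lower at stage 1 in WT, Slamf6, Cd2 and Egr2. In Bcl6KO it called 1 lower, Egr2. Over all tested genes 0.363% were called lower in WT and 0.255% in Bcl6KO. The 9 myeloid markers summed to 9.45 to 38.4 CPM in WT stage 0, 10.8 to 63.8 in WT stage 1, 13.8 to 65.5 in Bcl6KO stage 0 and 37.9 to 104 in Bcl6KO stage 1, and the 7 epithelial and stromal markers to 2.19 to 26.2, 0.790 to 4.78, 13.8 to 52.3 and 1.2 to 3.38 CPM in the same order. Of the myeloid markers Cd14, S100a8 and S100a9 were at 0 in all groups, as were the epithelial and stromal markers Krt5, Krt8 and Pdgfra.

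Ncor1 gave the most RNA of the 7 genes for its length in 3 of the 4 groups, and Bcl6 ranged from the top of the order to the bottom. Levels between genes are compared here as mean CPM per kilobase of exon. In WT stage 0 the order was Ncor1 at 69.5, Bcl6 at 43.0, Bcor at 34.7, Tbl1xr1 at 20.3, Ctbp1 at 12, Mta3 at 9.03 and Hdac3 at 5.85, and each gene's libraries overlapped those of its neighbours. In Bcl6KO stage 0 Bcl6 came first at 90.6, overlapping Ncor1 at 72.0. Both lay above Tbl1xr1 at 30.2 and Bcor at 29.1 without overlap, and these in turn lay above Ctbp1 at 10.7, Mta3 at 4.61 and Hdac3 at 1.6. At stage 1 Bcl6 was last in both genotypes. In WT stage 1 it stood at 1.07 CPM per kilobase, below Hdac3 at 8.24 with no overlap, and Ncor1 led at 48.8, also with no overlap. In Bcl6KO stage 1 it stood at 4.77, overlapping Hdac3 at 4.80, Ctbp1 at 8.54 and Mta3 at 9.11 in a chain of neighbours, while Ncor1 at 50.8, Tbl1xr1 at 33.2 and Bcor at 26.7 formed the upper group.

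**Figure D1:**
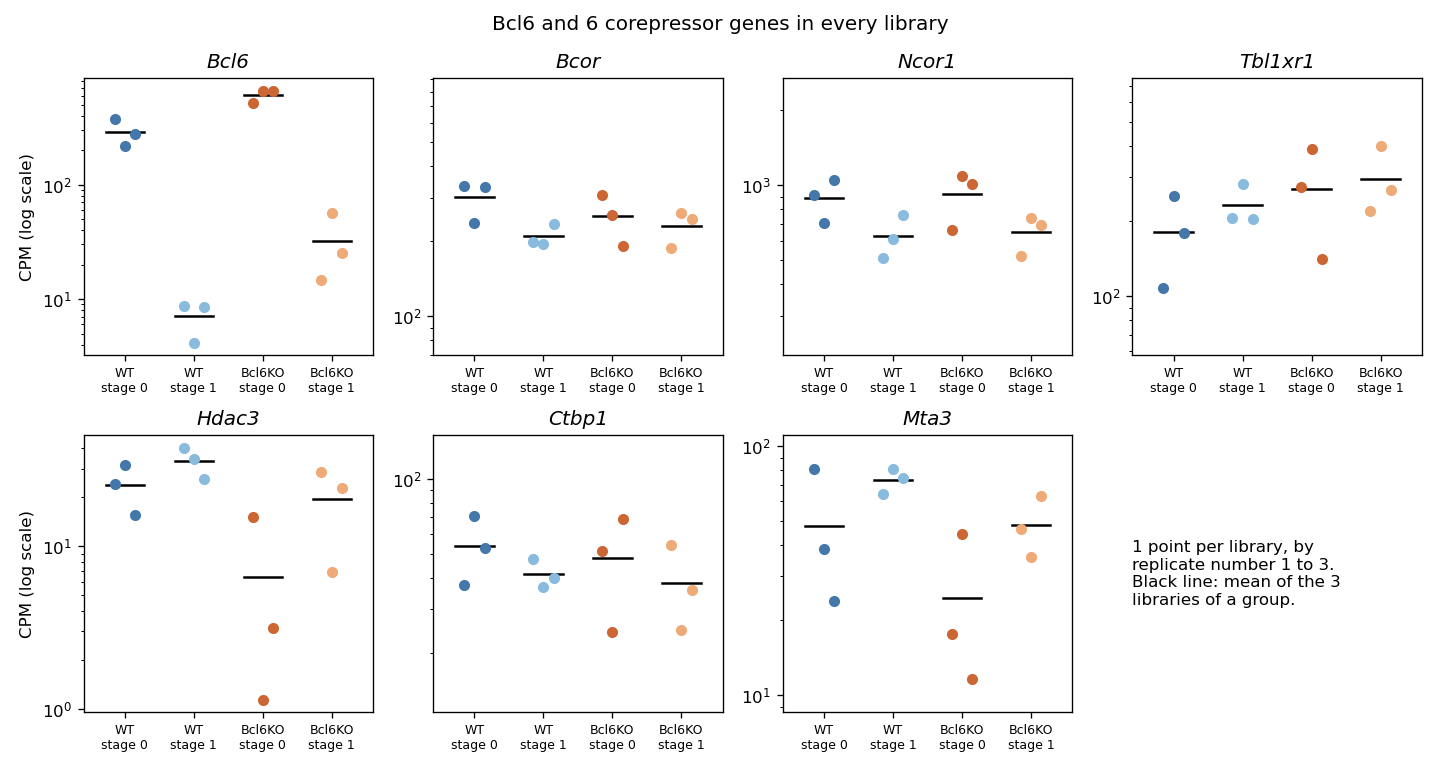
Levels of Bcl6 and the 6 corepressor genes in CPM on the TMM-scaled library size, each on its own log axis, with 1 point per library and a black line for the mean of 3 libraries in each of the 4 groups. Every Bcl6 library at stage 0 lies above every library at stage 1, from 217 to 657 CPM against 4.15 to 56.0 CPM.

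Bcl6 (ENSMUSG00000022508, mm10 chromosome 16, 23965052 to 23988852, minus strand) fell steeply between the stages in both genotypes. In WT it was counted at 373, 217 and 275 CPM in the stage 0 libraries and at 8.77, 4.15 and 8.61 CPM in the stage 1 libraries. In Bcl6KO it was counted at 511, 657 and 652 CPM at stage 0 and at 14.7, 56.0 and 25.2 CPM at stage 1. The stages did not overlap in either genotype, and the highest stage 1 library was replicate 2 of Bcl6KO. In WT the fall was 40.0-fold (log2 fold change -5.32, SE 0.53, 95% interval -6.46 to -4.19, adjusted p = 9.61e-04 by edgeR's quasi-likelihood F-test with Benjamini-Hochberg correction). In Bcl6KO it was 19-fold (log2 fold change -4.25, SE 0.49, 95% interval -5.31 to -3.18, edgeR adjusted p = 0.00633). Averaged over both genotypes it was 27.6-fold (log2 fold change -4.78, SE 0.36, edgeR adjusted p = 3.55e-05).

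Bcl6 was thus 1 of 7 genes called lower between the stages in each genotype, where 0.363% of all tested genes were called lower in WT and 0.255% in Bcl6KO, and 1.42% in the average over genotypes. Counting either direction, the shares were 0.433%, 0.675% and 3.46%. At an unadjusted p under 0.05 they were 8.40% in WT, 16.4% in Bcl6KO and 18.3% in the average, and 9.06% of genes in WT and 5.76% in Bcl6KO were lower at stage 1 without overlap. In bulk RNA, fewer cells of a type and less RNA per cell cannot be told apart. The Bcl6KO call was lost when only the 6 Bcl6KO libraries were fitted (log2 fold change -4.26, edgeR adjusted p = 0.0593) and when the share of counts in Sp100 was added as a covariate (-3.37, adjusted p = 0.210).

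Markers of double-positive thymocytes, which make Bcl6, also moved with stage. The 9 markers summed to 428, 1502 and 1067 CPM in the WT stage 0 libraries and to 82.1, 79.2 and 107 CPM at WT stage 1, where Rag2 was at 0 in all 3. In Bcl6KO they summed to 726, 982 and 1021 CPM at stage 0 and to 86.0, 183 and 157 CPM at stage 1. Within WT stage 0 the library with the lowest marker sum had the highest Bcl6, and within Bcl6KO stage 1 the library with the highest sum had the highest Bcl6. Within WT stage 1 and within Bcl6KO stage 0 the library with the lowest sum had the lowest Bcl6. The part of these markers in the fall of Bcl6 was not tested. The B cell list, 8 genes of the lineage in which BCL6 is best known, summed to 28.3 to 109 CPM at WT stage 0, 86.1 to 159 at WT stage 1, 55.5 to 184 at Bcl6KO stage 0 and 33.6 to 97.9 at Bcl6KO stage 1, with Ms4a1 at 0 in both stage 1 groups. The sums hide that most of its genes fell. Of 6 tested genes, 1 was higher at stage 1 in each genotype, and the median stage difference was -1.41 in WT and -3.57 in Bcl6KO. In the average stage effect edgeR called 1 of the 6, Pax5, lower, where 1.42% of all genes were.

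Bcl6 RNA was not lower in the libraries labelled Bcl6KO. At stage 0 the 3 Bcl6KO libraries, at 511 to 657 CPM, all lay above the WT libraries at 217 to 373 CPM, and the mean was 607 ± 83.0 against 288 ± 78.9 CPM (SD, n = 3 each). The difference was 1.07 on the log2 scale (SE 0.44, 95% interval 0.13 to 2.01) and did not pass the test (edgeR adjusted p = 0.285). With the Sp100 share as a covariate, which largely coincided with Bcl6KO stage 0, it was 0.26 (SE 0.79, edgeR adjusted p = 0.944). At stage 1 the Bcl6KO libraries, at 14.7 to 56.0 CPM, lay above the WT libraries at 4.15 to 8.77 CPM, with a difference of 2.15 (SE 0.47, 95% interval 1.15 to 3.15, edgeR adjusted p = 0.624). Averaged over the stages it was 1.61 (SE 0.32, 95% interval 0.93 to 2.30, edgeR adjusted p = 0.141). The count covers the whole gene, and since the labels do not name the deleted exons, it cannot show whether they were lost. At stage 1 and in the average DESeq2 did call Bcl6 higher, with adjusted p = 0.0250 and 6.46e-04.

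Of the 7 genes edgeR called 0 between genotypes at either stage or in the average, with 1 (Bcl6) at an unadjusted p under 0.05 in each. Across all tested genes it called 0.0191% at stage 0, 0% at stage 1 and 0.00637% in the average, and 14.7%, 2.57% and 10.9% at an unadjusted p under 0.05. DESeq2 called 0, 1 and 1 of the 7 genes and 950, 20 and 450 of all tested genes, and limma-voom called 0 of the 7 in each. Groups that did not overlap were common at both stages: 4.67% of genes were higher and 7.95% lower in this way at stage 0, and 5.87% and 7.44% at stage 1. The genotype effect on Bcl6 differed between the stages by 1.08 (SE 0.62, 95% interval -0.27 to 2.42), which did not pass the test (edgeR adjusted p = 0.727). For that difference edgeR, DESeq2 and limma-voom each called 0 of the 7 genes, with 0 of 7 at an unadjusted p under 0.05, where 0% of all tested genes were called and 7.78% had such a p.

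**Figure D2:**
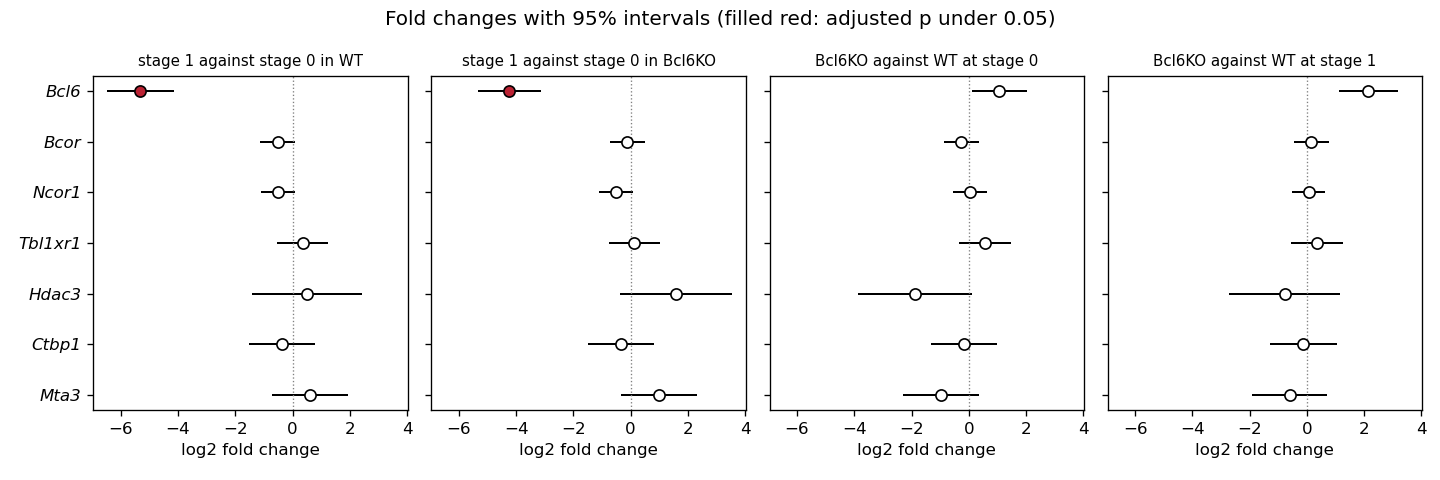
Log2 fold changes of the 7 genes with 95% intervals in each of 4 comparisons: Bcl6KO against WT at stage 0 and at stage 1, and stage 1 against stage 0 in WT and in Bcl6KO. Filled red points have an edgeR adjusted p under 0.05, which only Bcl6 between the stages reached, at -5.32 in WT and -4.25 in Bcl6KO.

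None of the 6 corepressor genes was called in any of the 7 comparisons. By edgeR, 1 of them had an unadjusted p under 0.05, Ncor1 in the average of the stage effect, and neither DESeq2 nor limma-voom called any. Their median log2 fold change was -0.01 between the stages in WT and 0.01 in Bcl6KO, where the median of all tested genes was -0.00 and 0.01. Between genotypes it was -0.21 at stage 0 and -0.03 at stage 1, against -0.01 and 0.02 over all tested genes.

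Ncor1 (ENSMUSG00000018501, mm10 chromosome 11, 62316426 to 62458541, minus strand) encodes the scaffold on which TBL1XR1 and HDAC3 assemble. It was counted at 914, 706 and 1053 CPM in WT stage 0, 511, 608 and 757 in WT stage 1, 664, 1092 and 1009 in Bcl6KO stage 0, and 521, 737 and 695 in Bcl6KO stage 1. Stage 1 means were lower in both genotypes, but the libraries of the stages overlapped. The stage difference was -0.51 in WT (95% interval -1.07 to 0.05, edgeR adjusted p = 0.642) and -0.50 in Bcl6KO (-1.06 to 0.05, adjusted p = 0.358). Averaged over genotypes it was -0.51 (95% interval -0.90 to -0.11, edgeR adjusted p = 0.154). Between genotypes it differed by 0.05 at stage 0 (95% interval -0.51 to 0.60) and 0.06 at stage 1 (-0.50 to 0.61), and both signs turned without scaling factors.

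Tbl1xr1 (ENSMUSG00000027630, mm10 chromosome 3, 22076652 to 22216594, plus strand) encodes an adaptor of the same complex. Its libraries stood at 108, 253 and 180 CPM in WT stage 0, 206, 283 and 205 in WT stage 1, 275, 390 and 141 in Bcl6KO stage 0, and 219, 401 and 266 in Bcl6KO stage 1. All 4 groups overlapped one another. The largest of its 4 differences was 0.57, Bcl6KO against WT at stage 0 (95% interval -0.29 to 1.44, edgeR adjusted p = 0.541).

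Hdac3 (ENSMUSG00000024454, mm10 chromosome 18, 37935844 to 37955016, minus strand) encodes the deacetylase of the NCoR complex and was the least counted of the 7 at stage 0. It was at 24.1, 31.5 and 15.5 CPM in WT stage 0 and at 15.2, 1.14 and 3.15 CPM in Bcl6KO stage 0, the last 3 from 76, 6 and 16 counts. The stage 1 values were 40.1, 34.4 and 25.8 CPM in WT and 28.6, 6.96 and 22.8 CPM in Bcl6KO. The stage 0 genotypes did not overlap, though replicate 1 of Bcl6KO lay just below the lowest WT library, and the stage 1 genotypes overlapped. The difference at stage 0 was -1.87 (SE 0.91, 95% interval -3.82 to 0.08, edgeR adjusted p = 0.360), and -3.46 without that replicate. With the Sp100 share as a covariate the sign turned, to 1.01 (edgeR adjusted p = 0.805). At stage 1 the difference was -0.78 (95% interval -2.67 to 1.11, edgeR adjusted p = 1.00), and between the stages it was 0.50 in WT and 1.58 in Bcl6KO, with adjusted p = 0.954 and 0.413.

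Bcor (ENSMUSG00000040363, mm10 chromosome X, 12036740 to 12160355, minus strand) encodes the corepressor that links BCL6 to the variant Polycomb complex. It was counted at 333, 238 and 331 CPM in WT stage 0 and at 199, 196 and 234 CPM in WT stage 1, so that the WT stages did not overlap. In Bcl6KO the stages overlapped, with 308, 256 and 192 CPM at stage 0 and 189, 260 and 246 CPM at stage 1. The stage difference was -0.52 in WT (SE 0.27, 95% interval -1.10 to 0.06, edgeR adjusted p = 0.645) and -0.12 in Bcl6KO (95% interval -0.70 to 0.45, adjusted p = 0.866). These effects differed by 0.40 (SE 0.38, edgeR adjusted p = 0.878), which did not pass the test.

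Mta3 (ENSMUSG00000055817, mm10 chromosome 17, 83706163 to 83821516, plus strand) encodes the NuRD subunit reported to work with BCL6 in B cells. It was at 81.3, 38.8 and 24.0 CPM in WT stage 0, 64.4, 81.3 and 74.3 in WT stage 1, 17.6, 44.4 and 11.6 in Bcl6KO stage 0, and 46.5, 36 and 62.9 in Bcl6KO stage 1. At stage 1 every Bcl6KO library lay below every WT library, by a narrow gap. The difference there was -0.60 (SE 0.59, 95% interval -1.87 to 0.68, edgeR adjusted p = 1.00), and at stage 0, with overlap, it was -0.97 (95% interval -2.26 to 0.32, adjusted p = 0.481).

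Ctbp1 (ENSMUSG00000037373, mm10 chromosome 5, 33247723 to 33274994, minus strand) encodes a corepressor of the CtBP family. It was at 37.4, 70.9 and 52.6 CPM in WT stage 0, 47.8, 36.7 and 40.0 in WT stage 1, 51.3, 24.3 and 68.7 in Bcl6KO stage 0, and 54.0, 24.8 and 35.7 in Bcl6KO stage 1. All groups overlapped, and its 4 differences ran from -0.37 to -0.12, each with a 95% interval more than 1 unit wide on either side.

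The genes also differed in how steady they were. The biological coefficient of variation was 29.4% for Ncor1 and 29.5% for Bcor, within the lowest 1.06% and 1.11% of tested genes, 38.7% for Tbl1xr1, 40.8% for Bcl6, 48.3% for Ctbp1, 53.3% for Mta3 and 74.0% for Hdac3. These ranks were not adjusted for level. By average log CPM the same genes, in that order, stood at percentiles 99.4, 96.0, 95.9, 95.6, 71.8, 73.2 and 53.8 of tested genes. Over the 12 libraries the log2 CPM range was 0.82 for Bcor and 1.09 for Ncor1, and 7.18 for Bcl6. The intervals above are narrowest for Ncor1 and Bcor and widest for Hdac3.

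The wider complexes were described from lists of known subunits, chosen with earlier results of these data known. Of the NCoR complex edgeR called 0 of 6 tested genes in each of the 7 comparisons, with 1 at an unadjusted p under 0.05 in the average stage effect and 0 in the others, and DESeq2 and limma-voom called 0. Over all tested genes 18.3% had such a p in the average stage effect. The median stage difference of its genes was 0.04 in WT and 0.02 in Bcl6KO. Of the 13 tested NuRD genes edgeR, DESeq2 and limma-voom called 0 in each comparison, with at most 1 at an unadjusted p under 0.05, and the median stage difference was -0.07 in WT and 0.24 in Bcl6KO. The lowest p values among them belonged to the helicase gene Chd3 at stage 0 between genotypes (0.77, edgeR adjusted p = 0.352), Chd4 at stage 1 (0.43, adjusted p = 1.00), the methyl-CpG reader gene Mbd2 between stages in WT (0.82, adjusted p = 0.541) and the deacetylase gene Hdac2 between stages in Bcl6KO (1.26, adjusted p = 0.312).

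The BCOR/PRC1.1 list had 11 tested genes, and edgeR called 0 in each comparison. At an unadjusted p under 0.05 it had up to 2, between the stages in Bcl6KO, where 16.4% of all tested genes had such a p. DESeq2 called 1 between genotypes at stage 0, 2 between stages in Bcl6KO and 1 in the average stage effect, and limma-voom called 0. Over all 15704 tested genes DESeq2 called 950, 1309 and 1495 in these 3 comparisons. Pcgf1, which encodes the PCGF subunit that pairs with BCOR, was at 0, 7.09 and 28.4 CPM in the WT stage 0 libraries, from lowest to highest, and had no count in any of the 3 Bcl6KO stage 0 libraries (edgeR adjusted p = 0.210). The genotypes overlapped, since 1 WT library was also at 0. Kdm2b, the subunit that binds unmethylated CpG, went from 217 ± 110 to 64.6 ± 24.2 CPM between the stages in Bcl6KO (-1.75, edgeR adjusted p = 0.112). The ubiquitin ligase gene Rnf2 differed by -0.45 between genotypes at stage 1 (edgeR adjusted p = 1.00).

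Of 10 tested CtBP and CoREST partners, edgeR called 1, Zeb2, lower in the average stage effect (-5.62, SE 0.99, edgeR adjusted p = 0.00892), where 1.42% of all genes were called lower. Zeb2, a zinc finger repressor that binds CtBP, went from 16.4 ± 1.70 to 0.340 ± 0.428 CPM between the stages in WT and from 22.5 ± 21.0 to 0.399 ± 0.346 CPM in Bcl6KO, with both stage 1 means below the floor. In the separate genotypes its edgeR adjusted p was 0.158 in WT and 0.0813 in Bcl6KO. Between the stages edgeR called 0 of the 10 in each genotype, with 1 in WT and 2 in Bcl6KO at an unadjusted p under 0.05, while DESeq2 called 1 and 2 and limma-voom 0 and 1. Over all tested genes 8.40% and 16.4% had such a p, and DESeq2 called 376 and 1309 of 15704. Ctbp2, the paralog of Ctbp1, was at 0.190 to 0.661 CPM in 3 groups and at 8.90 ± 4.96 CPM in Bcl6KO stage 1. Its genotype difference at stage 1 was 4.00 (SE 1.5, edgeR adjusted p = 1.00) and its stage difference in Bcl6KO was 5.36 (SE 1.62, adjusted p = 0.131). The Ctbp2 means on the low side, 0.535 CPM in WT stage 1 and 0.190 CPM in Bcl6KO stage 0, were below the floor. These fitted values are thus no measure of size. Rcor1 differed by -0.48 between genotypes at stage 0 (edgeR adjusted p = 0.637).

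The SIN3 and class II deacetylase list had 10 tested genes, with 0 called by edgeR in each comparison. The highest other counts came in the average stage effect. There 4 had an unadjusted p under 0.05, DESeq2 called 4 and limma-voom called 1. Over all tested genes in that effect, 18.3% had such a p and DESeq2 called 1495 of 15704. Sap30, a SIN3 subunit gene, had stage 0 means of 11.1 ± 8.41 CPM in WT libraries and 117 ± 67.3 CPM in Bcl6KO libraries (3.40, SE 0.94, edgeR adjusted p = 0.162), and it was 3.30 lower on the log2 scale at stage 1 than stage 0 in Bcl6KO (-3.30, adjusted p = 0.111). Hdac5 went from 18.5 ± 15.1 to 121 ± 49.4 CPM between the stages in WT (2.72, SE 0.80, edgeR adjusted p = 0.264).

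**Figure D3:**
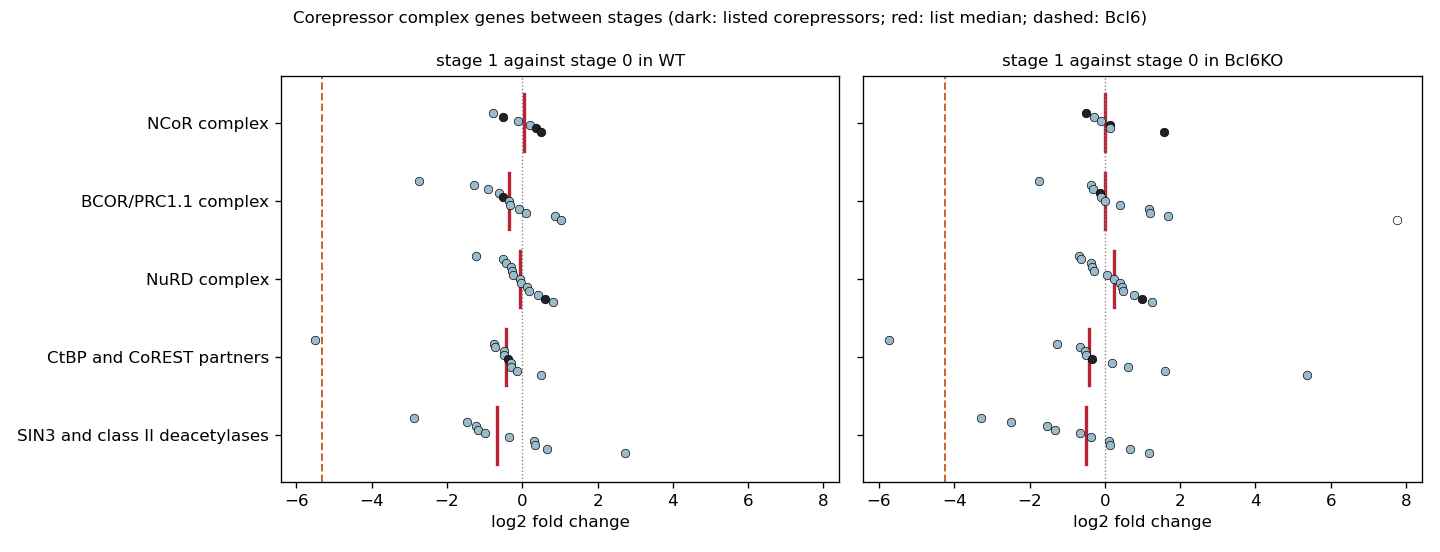
Log2 fold change of stage 1 against stage 0 for the tested genes of 5 corepressor lists, in WT and in Bcl6KO, with 1 point per gene, the 6 followed corepressor genes in dark, a red bar for the list median and a dashed line for Bcl6. The white point is Pcgf1, which had no count in Bcl6KO stage 0, so its fitted value is no measure of size; Bcl6 at -5.32 and -4.25 lies left of all list genes but Zeb2.

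Among 12 tested BCL6 relatives and DNA-binding partners, Bcl6 was the only gene that edgeR called between the stages in either genotype, where DESeq2 called 2 in WT and 4 in Bcl6KO and limma-voom 1 and 2. Between genotypes edgeR called none, with 4 genes at stage 0 and 1 at stage 1 at an unadjusted p under 0.05 by edgeR. Over all tested genes 14.7% and 2.57% had such a p. DESeq2 called 2 and 1 of the list and 950 and 20 of all tested genes, and limma-voom called 0 of the list. In the average stage effect Zbtb16 and Zbtb7b rose by edgeR while Bcl6 fell, where 2.04% of all tested genes were called higher and 1.42% lower. The Zbtb16 call held in 20 of 21 alternatives, with 0.74 (edgeR adjusted p = 0.672) when the Sp100 share was a covariate, and the Zbtb7b call in 9 of 21. Zbtb16, which encodes PLZF, the BTB factor that directs the iNKT programme, went from 166 ± 60.9 to 544 ± 120 CPM in WT and from 50.5 ± 43.0 to 356 ± 73.9 CPM in Bcl6KO (averaged 2.26, SE 0.43, edgeR adjusted p = 0.0133). Zbtb7b, which encodes the CD4 lineage factor ThPOK, had WT means of 6.00 ± 3.89 and 65.7 ± 24.6 CPM and Bcl6KO means of 93.2 ± 34.1 and 118 ± 70.3 CPM at stages 0 and 1 (averaged 1.89, SE 0.46, edgeR adjusted p = 0.0392). Its WT and Bcl6KO libraries did not overlap at stage 0 (3.95, SE 0.70), a difference that did not pass the test (edgeR adjusted p = 0.100). DESeq2 did call it (3.99, adjusted p = 1.07e-06), and limma-voom did not (4.12, adjusted p = 0.153). With the Sp100 share as a covariate it was 3.03 (edgeR adjusted p = 0.301).

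Of 17 tested regulators of Bcl6 transcription, edgeR called 3 lower between the stages in WT and 1 in Bcl6KO, where 0.363% and 0.255% of all tested genes were called lower, and it called none higher in either genotype. In either direction DESeq2 called 5 and 7 and limma-voom 3 and 2. Egr2, a factor induced by receptor signals, went from 484 ± 121 to 75.1 ± 26.1 CPM in WT (-2.69, SE 0.35, edgeR adjusted p = 0.00343) and from 431 ± 40.9 to 113 ± 38.3 CPM in Bcl6KO (-1.94, SE 0.34, edgeR adjusted p = 0.0278). Lef1, a Wnt pathway factor known to raise Bcl6 in follicular helper T cells, went from 2849 ± 994 to 423 ± 180 CPM in WT (-2.75, SE 0.38, edgeR adjusted p = 0.00484), with 13.7% of its exon bases shared with an antisense gene. Tox went from 1101 ± 251 to 350 ± 88 CPM in WT (-1.65, SE 0.26, edgeR adjusted p = 0.0132). The WT calls held in 22 of 22 alternatives for Egr2, 22 of 22 for Lef1 and 18 of 22 for Tox. For Egr2 in Bcl6KO the call held in 15 of 22. In Bcl6KO the stage differences of Lef1 and Tox were -1.37 and -1.0, with adjusted p = 0.0939 and 0.0883. In the average stage effect these 3 fell, and Id2, an inhibitor of E proteins, Irf4 and Foxo1 rose, by 2.33, 3.09 and 1.5 (edgeR adjusted p = 0.0351, 0.0396 and 0.0165). Of all tested genes edgeR called 1.42% lower and 2.04% higher in that effect. The calls held in 9 of 20 alternatives for Id2, 9 of 20 for Irf4 and 19 of 21 for Foxo1. Between genotypes edgeR, DESeq2 and limma-voom called 0 of the 17 at each stage, with 1 at an unadjusted p under 0.05 at each.

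The last list held 31 tested genes reported as bound or repressed by BCL6 in B or T cells. Between genotypes at stage 0, edgeR called 1 of 31, higher, where 0.0191% of all genes were. At an unadjusted p under 0.05 it had 9 of 31, Bcl6 itself among them, where 14.7% of all tested genes had such a p. DESeq2 called 6 of the 31 and 950 of all 15704 tested genes, and limma-voom called 1 of the 31. The gene that edgeR called was Ccnd2, which encodes cyclin D2, at 720 ± 34.7 CPM in the WT libraries and 2241 ± 455 CPM in those of Bcl6KO (1.64, SE 0.21, edgeR adjusted p = 0.0340). The call held in 11 of 22 alternative analyses, and 7.86% of the gene's exon bases are shared with antisense genes. The median of the list, which includes Bcl6 itself, was 0.46 at stage 0 against -0.01 over all genes, and 0.11 at stage 1 against 0.02. The stage 0 shift was not particular to this list. Medians of the other lists there ran from -0.26 for BCOR/PRC1.1 to 0.71 for the BCL6 relatives, with 0.62 for the SIN3 list. At stage 1 edgeR called 0 of 31, with 3 at an unadjusted p under 0.05, Bcl6 itself among them, where 2.57% of all genes had such a p. DESeq2 called 2 of the 31 and 20 of all tested genes, and limma-voom called 0 of the 31. The lowest p belonged to Bcl2, the survival gene (2.23, SE 0.47, edgeR adjusted p = 0.624).

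Between the stages in WT, the cytokine receptor gene Il7r rose and Bcl6, Cd69 and Bcl2 fell by edgeR, which in Bcl6KO called only Bcl6. DESeq2 called 6 of the 31 in WT and 8 in Bcl6KO, and limma-voom 2 and 4. Over all genes 0.0700% were called higher at stage 1 in WT, 0.420% in Bcl6KO and 2.04% in the average. Il7r went from 59.5 ± 52.5 to 519 ± 37.5 CPM in WT (3.13, SE 0.57, edgeR adjusted p = 0.0320), and was at 466 ± 307 and 478 ± 63.9 CPM in Bcl6KO (0.04, adjusted p = 0.984). Cd69, which encodes an activation antigen that holds thymocytes back from egress, went from 222 ± 109 to 9.61 ± 8.12 CPM in WT (-4.53, SE 0.82, edgeR adjusted p = 0.0320). Bcl2 went from 638 ± 323 to 69.5 ± 22.9 CPM in WT (-3.20, SE 0.49, edgeR adjusted p = 0.0114). These WT calls held in 15 of 22 alternatives for Il7r, 13 of 21 for Cd69 and 18 of 22 for Bcl2. In Bcl6KO the differences of Cd69 and Bcl2 were -3.06 and -1.78, with edgeR adjusted p = 0.0831 and 0.0918. In the average stage effect Il7r, Id2, Zbtb7b and the egress receptor gene S1pr1 rose. Bcl6, Cd69, Bcl2 and Gpr183 fell in it, where 1.42% of all tested genes were called lower. The calls held in 10 of 21 alternatives for Il7r, 11 of 20 for S1pr1 and 9 of 21 for Gpr183. The difference between the genotypes' stage effects was itself tested, and edgeR called 0 of these 31 genes and 0 of the 17 regulators. At an unadjusted p under 0.05 it had 6 and 2, where 7.78% of all tested genes had such a p. DESeq2 called 2 and 0 of the lists and 130 of all tested genes, and limma-voom called 0 of either list. In the average S1pr1 rose by 3.81 (edgeR adjusted p = 0.0252) and Gpr183 fell by 2.14 (adjusted p = 0.0419).

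The profile of Bcl6 over the 12 libraries was most like that of 5 genes, by the root mean square difference between log2 CPM profiles centred on their own means, among 9955 protein-coding genes with a mean of at least 5 CPM. The difference was 0.70 for Itm2a, 0.85 for Plxdc2, 1.05 for Gpr83, 1.05 for Adgrg1 and 1.06 for Cd69, against a median of 2.85 for all genes compared. Itm2a, a membrane protein gene known to be induced at positive selection, was at 452 CPM in WT stage 0, 7.88 in WT stage 1, 665 in Bcl6KO stage 0 and 58.0 in Bcl6KO stage 1. As in Bcl6, its mean was higher in Bcl6KO than in WT at both stages, a likeness that the choice of the gene favours. Its genotype differences, 0.56 at stage 0 and 2.88 at stage 1, did not pass the test (edgeR adjusted p = 0.565 and 0.115). Plxdc2 was at 45.8, 1.69, 46.1 and 4.98 CPM in the same order, and Gpr83, a receptor gene, at 45.3, 1.66, 54.9 and 6.49 CPM. Adgrg1, an adhesion receptor gene, was at 5.98, 0, 34.9 and 1.06 CPM. All of these share the same libraries and their depth, so likeness is a description over 12 points.

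**Figure D4:**
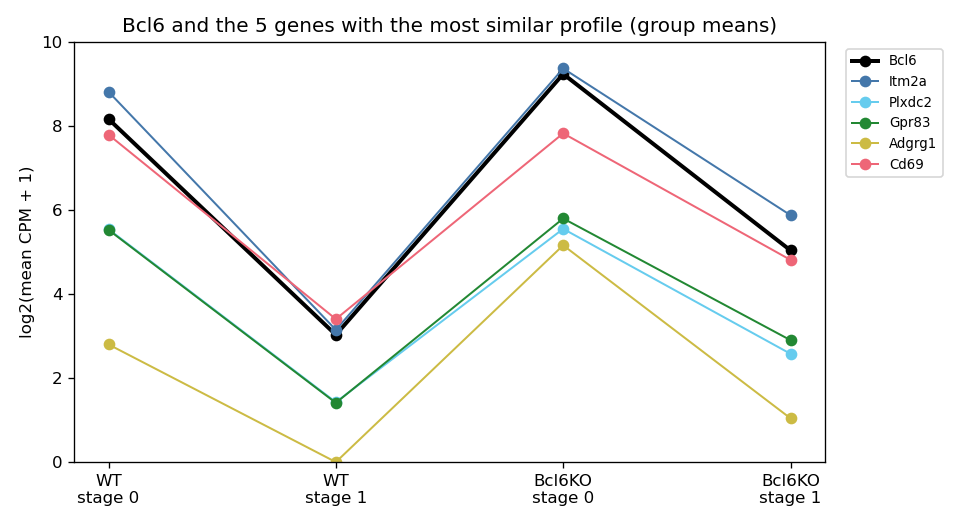
Group means of Bcl6 and the 5 genes most like it, as log2 of mean CPM plus 1, at both stages of WT and then both stages of Bcl6KO. All 6 lines drop at stage 1 in both genotypes, Itm2a from 452 to 7.88 CPM in WT and from 665 to 58.0 CPM in Bcl6KO.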

How the data were processed

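Per the labels' protocols, RNA was purified with a QIAGEN kit and NuGEN's Ovation Ultralow system was used for the libraries. The authors deposited an unnormalized count for each gene in each library. The submitters' processing notes name build mm10 and the tools bcl2fastq, TopHat2, Bowtie2 and DESeq. Versions, counting program, annotation and strand setting were not stated there, so reads from genes that overlap on either strand may be shared. The share of exon bases overlapped by another gene was 0.313% for Bcl6 and 0.648% for Ncor1, and among list genes named without it in the text it was above 5% for Kdm2b (8.74%), Foxo1 (7.78%), Bcl2 (6.09%) and Ctbp2 (5.05%), whose counts are uncertain for that reason. Symbols, coordinates and exon lengths came from GENCODE M21 on the same build, which matched 48312 IDs; the rest stayed in the tests and held 0.195% to 0.366% of counts. Chromatin accessibility libraries were not analysed here.

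Counts of 15704 genes passing filterByExpr were fitted with edgeR 4.0.16 in R 4.3.3 (TMM scaling, robust quasi-likelihood, 1 mean per group over all 12 libraries, 8 residual degrees of freedom). Tests were two-sided, with Benjamini-Hochberg adjustment over all tested genes and a threshold of 0.05. Standard errors were derived as |log2 fold change| over the root of F, and common dispersion gave a biological coefficient of variation of 83.5%. CPM used the TMM-scaled library size, and CPM per kilobase the union of exons. Floors cover counting error only, since the libraries carry no molecular identifiers. Within groups, pairs of libraries differed with a chi-square per gene of 29.1 to 181, so none was merged. The procedure was tested on simulated data.

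The 7 genes, the 8 gene lists and the marker lists were chosen with earlier results of these data known. The text names the 7 genes, every list gene called in any comparison, the gene with the lowest p of each list in each simple comparison, and the 5 genes most like Bcl6. Results for some list genes under this rule are not reported here. Alternatives were other scalings and filters, a replicate block, the Sp100 share as a covariate, fits of only the groups compared, limma-voom (limma 3.58.1), DESeq2 1.42.0 and leaving out each library.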

Additional observations from a re-analysis of the deposited data

How the results depend on the processing

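The fall of Bcl6 between the stages in WT was called in 22 of 22 alternatives and its fall in Bcl6KO in 20 of 22, with -3.37 (adjusted p = 0.210) when the Sp100 share was a covariate and -4.26 (adjusted p = 0.0593) when only the groups compared were fitted, so that 0 of the 7 genes were then called. Bcl6 was called higher in Bcl6KO at stage 1 without a filter (2.15, adjusted p = 0.0173) and by DESeq2 (2.17, adjusted p = 0.0250). Averaged over stages it was called without a filter (1.56, adjusted p = 0.00429), with at least 10 counts in every library (1.58, adjusted p = 0.0483) and by DESeq2 (1.64, adjusted p = 6.46e-04), which makes 1 of the 7 genes called in each of these. Leaving out a library gave 0.87 to 1.28 for Bcl6KO against WT at stage 0, 1.47 to 2.51 at stage 1, -5.53 to -5.03 for the stages in WT and -4.91 to -3.88 in Bcl6KO; the 1.47 came without replicate 2 of Bcl6KO stage 1. The cause was not tested.

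Of 899 corepressor values under the alternatives, 0 were called and 59 had another sign. Without scaling factors the median of all genes moved to -0.47 for Bcl6KO against WT at stage 0, 0.50 for the stages in Bcl6KO, 0.46 for the difference between effects, -0.26 for the averaged genotype effect and 0.31 for the averaged stage effect, and with it Ncor1 went to -0.44, -0.01 and -0.22 between genotypes at stage 0, at stage 1 and averaged, Bcor, Ncor1 and Ctbp1 to 0.34, 0.02 and 0.17 between the stages in Bcl6KO, and the Tbl1xr1 difference between effects to 0.22. The Ncor1 genotype difference at stage 0 was -0.05 without a filter and -0.00 with at least 10 counts, and its difference between effects was -0.01 with DESeq2 and with that tool's scaling. With the Sp100 share as a covariate, the genotype differences of Ncor1, Hdac3 and Ctbp1 went to -0.94, 1.01 and 1.23 at stage 0 and to -0.50, 0.34 and 0.63 in the average, Ncor1 and Ctbp1 to -0.07 and 0.03 at stage 1, Hdac3 to -0.27 between the stages in WT, Ncor1 and Hdac3 to 0.57 and -1.61 between the stages in Bcl6KO and to 0.14 and -0.94 in the average, and Hdac3 and Ctbp1 to -1.34 and -1.20 for the difference between effects.

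Leaving out a library turned signs within these ranges: Ncor1 -0.13 to 0.23 and Ctbp1 -0.51 to 0.15 between genotypes at stage 0, -0.08 to 0.22 and -0.43 to 0.11 at stage 1, and Bcor -0.15 to 0.02, Ncor1 -0.03 to 0.14 and Ctbp1 -0.31 to 0.02 in the average; Bcor -0.29 to 0.06, Tbl1xr1 -0.17 to 0.51 and Ctbp1 -0.65 to 0.01 between the stages in Bcl6KO; and Ncor1 -0.18 to 0.21, Tbl1xr1 -0.51 to 0.16, Ctbp1 -0.27 to 0.39 and Mta3 -0.22 to 1.14 for the difference between effects.

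The count of all genes called moved more. Bcl6KO against WT at stage 0 had 3, and 0 without scaling factors, with the covariate or with only the groups compared, 103 without a filter, 43 with at least 10 counts, 1 with limma-voom, 950 with DESeq2 and 0 to 133 without a library. At stage 1 it had 0, and 11 without a filter, 2 with at least 10 counts, 20 with DESeq2 and 0 to 1 without a library. The stages in WT had 68, and 142, 123 and 376 under the same 3, and 20 to 139 without a library. The stages in Bcl6KO had 106, and 172 without scaling factors, 309 without a filter, 0 with the covariate, 3 with only the groups compared, 251 with limma-voom, 1309 with DESeq2 and 7 to 277 without a library. The difference between effects had 0, and 7 without a filter and 130 with DESeq2. The averaged genotype effect had 1, and 88 without a filter, 15 with at least 10 counts, 0 with the covariate, 4 with limma-voom, 450 with DESeq2 and 0 to 62 without a library. The averaged stage effect had 544, and 830, 361, 16 and 1495 without a filter, with at least 10 counts, with the covariate and with DESeq2, and 193 to 708 without a library.

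Same-numbered libraries of different groups correlated between -0.08 and 0.12 after centring on their group means. These low values do not exclude pairing, since each group has only 3 libraries and differently numbered pairs were not compared. With the replicate number as a block, Bcl6 was at -5.32 and -4.27 between the stages in WT and Bcl6KO (adjusted p = 0.00368 and 0.0180) and at 1.05 and 2.10 between genotypes at stages 0 and 1 (adjusted p = 0.412 and 1.00), and all genes called numbered 1 for Bcl6KO against WT at stage 0 and 39 for the stages in Bcl6KO. Hdac3, with 6 counts in a library, had no value with at least 10 counts in every library.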
